A study of Mus musculus with 6 samples.

Results

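The enzymes that make UDP-N-acetylglucosamine (UDP-GlcNAc) and those that salvage or break down its precursors were followed in the ileal epithelium of mice that had lost Ogt. The product of Ogt, O-GlcNAc transferase, spends UDP-GlcNAc on nuclear and cytoplasmic proteins. The 10 genes were taken by name from the pathway, with earlier results of these data known. Gfpt1, Gfpt2, Gnpnat1, Pgm3 and Uap1 belong to synthesis, and Nagk, Renbp, Amdhd2, Gnpda1 and Gnpda2 to salvage and breakdown. All 10 were found by Ensembl identifier among the 22274 genes listed, and all 10 had enough counts to be tested.

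RNA was sequenced in bulk from isolated ileal epithelial cells, with 3 libraries per group. Control mice carried floxed alleles of Ogt (genotype label LoxP). The titles of both groups carry the name Olfm4, and whether the controls also carried the driver is not stated. Knockout mice carried floxed Ogt together with Olfm4-CreER, a recombinase that tamoxifen activates and that is driven from a gene of crypt stem cells. The protocol given for all 6 libraries states tamoxifen for 3 consecutive days in mice aged 2 months and collection on day 10, by which time the ileal epithelium is described as lacking Ogt. If the controls lacked the driver, its presence and the loss of Ogt cannot be told apart. Whether each library is a different animal is not stated. The p-values therefore rest on the spread between these libraries, which may be technical.

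The hexosamine pathway branches from glycolysis. Glutamine:fructose-6-phosphate amidotransferase (Gfpt1, Gfpt2) makes glucosamine-6-phosphate, Gnpnat1 acetylates it, Pgm3 moves the phosphate and Uap1 joins the sugar to UDP. The product also feeds N-glycans and, through related sugars, mucins and sialic acid, all of which are heavily used in intestinal epithelium. Sugar recovered from degraded glycans re-enters through the kinase Nagk, while Amdhd2 removes the acetyl group and Gnpda1 and Gnpda2 return glucosamine-6-phosphate to fructose-6-phosphate. Renbp interconverts N-acetylglucosamine and N-acetylmannosamine.

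Libraries held between 14389429 and 18076479 estimated counts. Ogt was lower in every knockout library, at 48.5, 43.0 and 36.0 CPM (counts scaled to a common library size after TMM normalisation) against 140, 127 and 128 CPM in control (log2 fold change -1.63 ± 0.13, ± SE here and below; adjusted p = 0.00121, edgeR quasi-likelihood test). Oga, the gene of the hydrolase that takes O-GlcNAc off proteins, fell as well (-1.47 ± 0.14, adjusted p = 0.00162). Of 14005 genes tested, 2619 (18.7%) changed at an adjusted p under 0.05, 9.33% higher and 9.37% lower (1307 and 1312 genes). The split was 2045 higher and 859 lower with library size as the only scaling, and 1906 higher and 724 lower in limma on log2(FPKM + 0.1). In all, 3304 genes changed without control 1, 1683 without control 2, 1198 without control 3, and 1654, 1134 and 1009 without knockouts 1, 2 and 3. All 9 epithelial markers (Epcam, Cdh1, Vil1 and keratins among them) were present, with summed levels of 22111 to 27058 CPM in control and 20041 to 23981 CPM in knockout libraries. Markers of T and intraepithelial lymphocytes (222 to 427 CPM in control, 242 to 400 CPM in knockout libraries), fibroblasts (320 to 461 and 428 to 508 CPM) and muscle (758 to 1751 and 809 to 1591 CPM) were present at lower levels. Collagen genes Col1a1 and Col1a2 of the fibroblast list and Acta1 and Myot of the muscle list rose. Tuft cell markers fell, 7 of 7 (87.6 to 91.4 CPM against 13.8 to 18.1 CPM), and 2 of 8 enteroendocrine markers, Sct and Ghrl, rose (sums of 64.0 to 90.0 against 115 to 132 CPM). Enterocyte markers fell in 4 of 9 (20898 to 33104 against 18239 to 21456 CPM) and goblet cell markers in 2 of 9 (6853 to 15983 against 4799 to 8348 CPM). Control 1 stood apart from the other controls in both sums, with 20898 CPM for enterocyte markers (33104 and 32299 in controls 2 and 3) and 15983 CPM for goblet cell markers (8580 and 6853). Control 2 stood apart in Paneth cell markers, at 236 CPM (2481 and 2224 in controls 1 and 3), and in crypt stem and proliferating markers, at 248 CPM (549 and 493). B and plasma cell markers summed to 446, 1803 and 1080 CPM in controls 1 to 3. The part of cell composition in the results below was not tested, and in bulk RNA fewer cells of a type cannot be told apart from less RNA per cell.

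Of the 10 enzymes, 3 rose in knockout libraries and none fell. Pgm3, which isomerises N-acetylglucosamine phosphate, rose 1.88-fold, the deacetylase gene Amdhd2 rose 1.86-fold and the salvage kinase gene Nagk rose 1.54-fold. These 3 of 10 stand beside 9.33% of all tested genes that rose and 9.37% that fell. At an unadjusted p under 0.05 the number was 5, all of them higher, beside 16.5% of all tested genes higher and 17.5% lower. DESeq2 called 5 higher and none lower, beside 11.8% and 11.0% of all genes. The groups did not overlap for 5 enzymes, all higher (Gfpt1, Pgm3, Nagk, Amdhd2 and Gnpda1), which is 50% beside 39.8% of all tested genes. The median log2 fold change was 0.47 over the enzymes and -0.05 over all tested genes. The number that rose was 4, 3 and 2 without controls 1, 2 and 3 in turn, and 2 without each knockout library. Over all tested genes, 1932, 903 and 639 rose without controls 1, 2 and 3. Without knockouts 1, 2 and 3 these numbers were 757, 601 and 549, beside 1307 in the full set. With library size as the only scaling, the median of all genes was 0.09 and the test called 5 enzymes higher (14.6% of all genes). Values relative to the median of each setting were nearly fixed by construction, because a change of scaling moves all genes nearly alike. They stood at 0.37 and 0.36 for Gfpt1 and 0.95 and 0.96 for Pgm3, and are no check of the calls. Limma on log2(FPKM + 1) also called 5 enzymes higher and none lower, beside 16.4% and 6.24% of all genes. It tested only genes with at least 1 FPKM in 3 libraries, which left out Gfpt2.

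**Figure D1:**
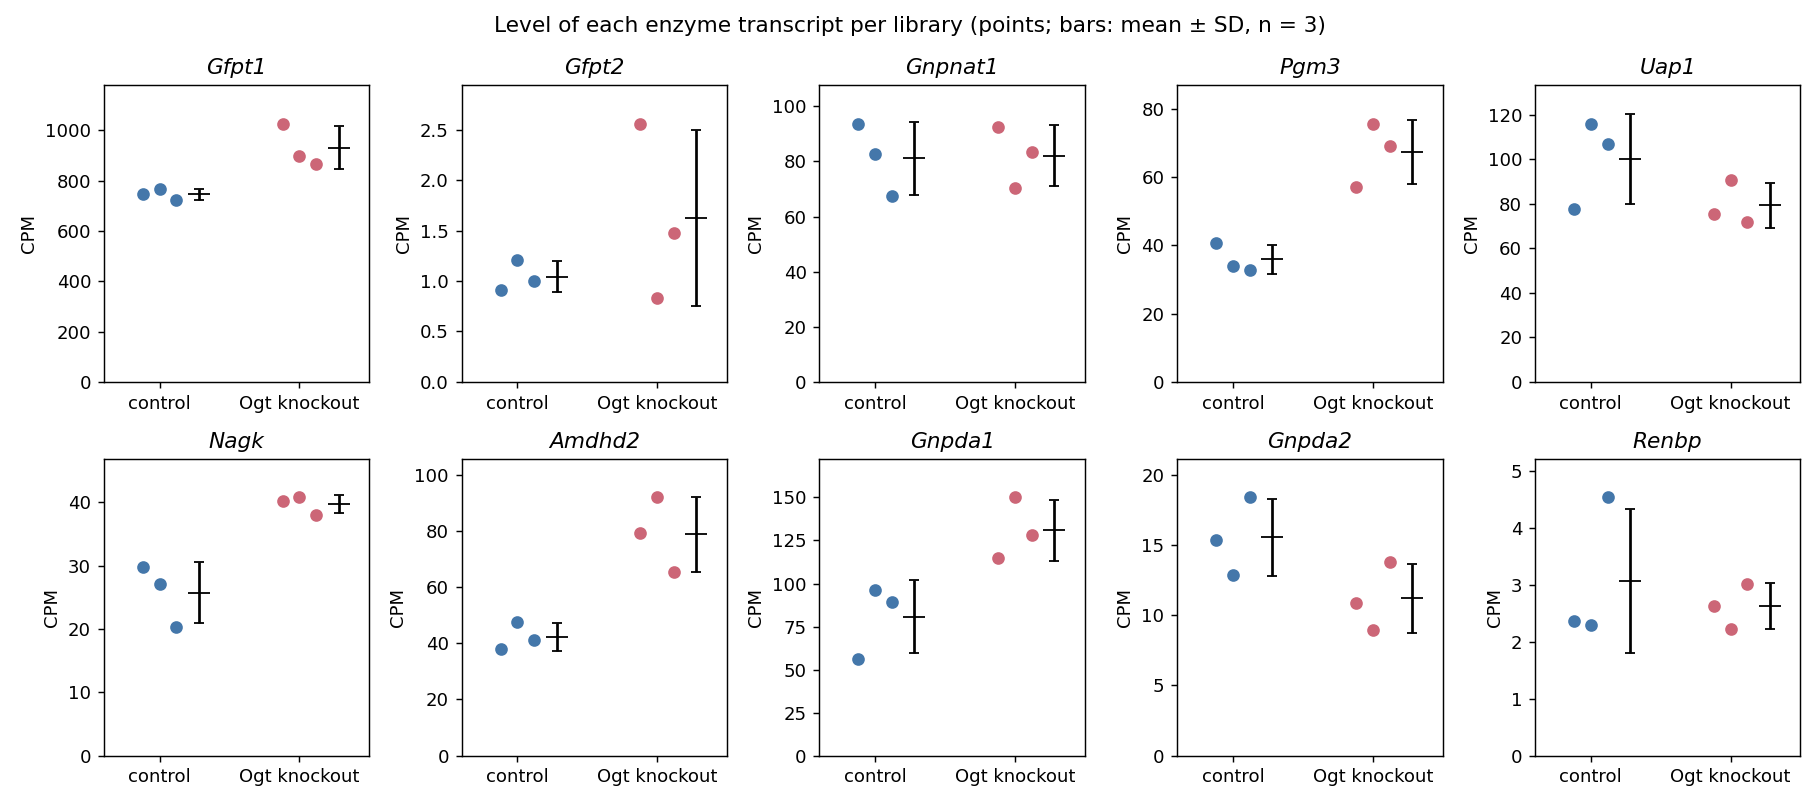
Level of each of the 10 enzyme transcripts in CPM (vertical axes start at 0) in the 3 control (blue) and 3 Ogt knockout (red) libraries; black bars give the mean ± SD. Knockout points lie above all control points for Gfpt1, Pgm3, Nagk, Amdhd2 and Gnpda1 and overlap them for the other enzymes.

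Gfpt1 stood far above the other enzymes on the length-scaled FPKM scale of the deposited table. In control libraries it measured 114 ± 4.52 FPKM (mean ± SD, n = 3 here and below). Its mean over all 6 libraries, 136 FPKM, lay at the 96.0th percentile of the same mean among tested genes. Uap1 (41.5 ± 7.48), Gnpda1 (35.5 ± 9.37), Gnpnat1 (30.6 ± 5.14) and Amdhd2 (26.9 ± 2.75 FPKM) followed, and each of these overlapped the next in that order. Nagk (17.9 ± 3.67) and Pgm3 (13.3 ± 1.94 FPKM) overlapped each other and lay below Amdhd2 in every control library. Gnpda2 (8.47 ± 1.52), Renbp (2.12 ± 0.808) and Gfpt2 (0.337 ± 0.0473 FPKM) were the lowest, in that order and without overlap. In knockout libraries Gfpt1 measured 157 ± 8.40 FPKM, and Gnpda1 (62.0 ± 11.2) and Amdhd2 (55.0 ± 8.75 FPKM), which overlapped, came next. Amdhd2 now lay above Gnpnat1 (36.1 ± 6.85) and Uap1 (36.1 ± 4.69 FPKM) in every knockout library. Nagk (30.0 ± 1.04) and Pgm3 (26.8 ± 4.30 FPKM) overlapped each other and Gnpnat1, and both lay below Uap1 in every knockout library.

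Summed over the 5 synthesis enzymes, FPKM was 203, 206 and 192 in control and 265, 253 and 250 in knockout libraries, 1.28 times the control mean. Over the 5 salvage and breakdown enzymes the sums were 81.3, 96.8 and 94.5 in control and 141, 176 and 150 in knockout libraries, 1.71 times the control mean. No test was run on these sums. Deposited FPKM carries no TMM scaling. In limma on log2(FPKM + 0.1) the middle tested gene had a log2 difference of 0.12, against -0.05 in edgeR with TMM factors. The part of this shift in both ratios was not tested. Gfpt1, the largest part of the synthesis sum, went from a mean of 114 to 157 FPKM. Its fold in edgeR with TMM factors was 1.25 and did not pass (adjusted p = 0.107). Gfpt1 made up 57.2% ± 0.835 of the synthesis sum in control and 61.1% ± 1.44 in knockout libraries.

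**Figure D2:**
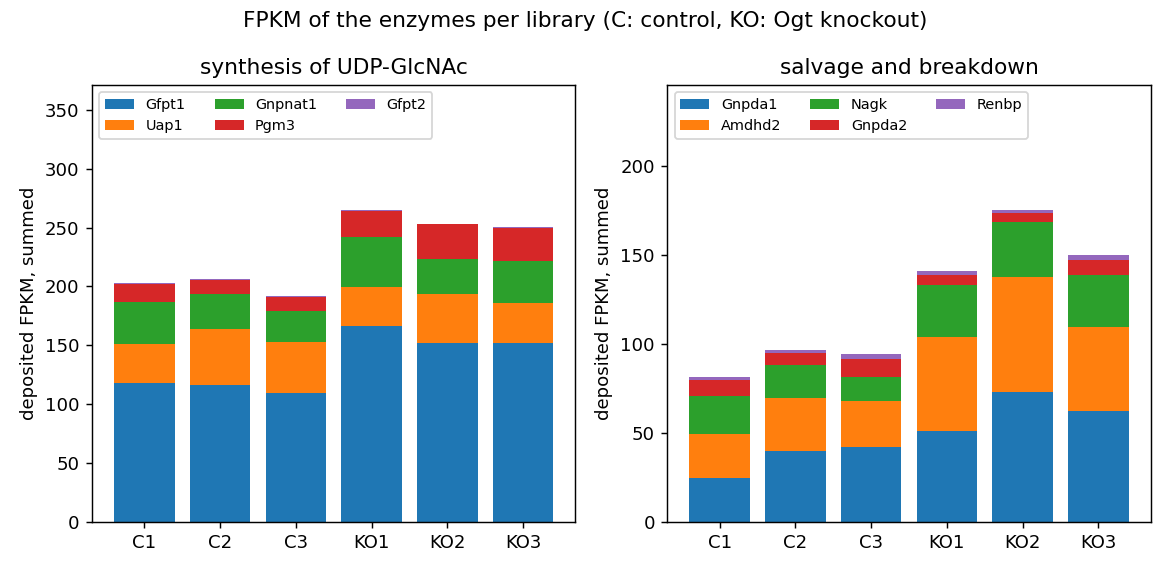
Deposited FPKM of each enzyme, stacked by library, for the 5 synthesis genes (left) and the 5 salvage and breakdown genes (right); C is control, KO is Ogt knockout. Knockout stacks reach 250 to 265 FPKM on the left and 141 to 176 FPKM on the right, against 192 to 206 and 81.3 to 96.8 FPKM in control.

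The amidotransferase gene Gfpt1, which encodes the step that commits fructose-6-phosphate to the pathway, measured 748, 767 and 723 CPM in control and 1026, 899 and 866 CPM in knockout libraries. Every knockout library lay above every control library, and the control libraries varied by 2.93% (coefficient of variation). The difference was small (0.32 ± 0.12, 95% interval 0.04 to 0.60) and did not pass the test over all genes (adjusted p = 0.107). It did pass under library size alone (0.45, adjusted p = 0.024), with DESeq2 (0.34, adjusted p = 0.0204) and in limma on log2(FPKM + 0.1) (0.45, adjusted p = 0.018). Gfpt2, the second amidotransferase gene, had 15 to 20 counts per control library and 15 to 37 per knockout library. It reached 2.56 CPM in knockout 1 but 0.833 CPM in knockout 2, below all controls, and did not pass (0.62 ± 0.45, adjusted p = 0.367). Without knockout 1 its value was 0.15. Gfpt2 made up 0.293% ± 0.0400 of the FPKM of both genes in control and 0.359% ± 0.162 in knockout libraries. Of 7 fibroblast markers, which the preparation also held, 2 rose (Col1a1 and Col1a2), and their sum was 320, 407 and 461 CPM in controls 1 to 3 and 486, 428 and 508 CPM in knockouts 1 to 3. Their part in the Gfpt2 value was not tested.

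Gnpnat1, the acetyltransferase gene, measured 93.7, 82.6 and 67.3 CPM in control and 92.4, 70.5 and 83.3 CPM in knockout libraries. The groups overlapped throughout (0.02 ± 0.15, 95% interval -0.33 to 0.36, adjusted p = 0.954). On the FPKM scale the same gene stood at 0.24 (limma on log2(FPKM + 0.1), adjusted p = 0.382). The transcript length implied by its deposited count and FPKM was 2158 bases in knockout 1 and between 2443 and 2615 bases in the other libraries, so the scales differ most there. Gnpnat1 lies on the minus strand of chromosome 14 and overlaps the plus-strand gene Styx over all of its 28580 bases in GENCODE M21. No library gave Gnpnat1 a whole count, so its level is partly an estimate. The part of the overlap in these fractions was not tested. Styx itself stood at -0.09 ± 0.17 (adjusted p = 0.741).

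Pgm3 measured 40.8, 34.0 and 32.8 CPM in control and 57.0, 75.6 and 69.2 CPM in knockout libraries. The lowest knockout library lay above the highest control library (0.91 ± 0.14, 95% interval 0.59 to 1.23, adjusted p = 0.00546). The call held without each library in turn, with values of 0.82 to 1.06 and adjusted p up to 0.0312. On chromosome 9, 1547 of the 17466 bases of Pgm3 overlap the opposite-strand gene Dop1a, which stood at 0.11 ± 0.10 (adjusted p = 0.478). The estimated counts of both were not whole in any library.

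Uap1, the last enzyme of synthesis, went the other way from Pgm3 in its point estimate. It measured 77.6, 116 and 107 CPM in control and 75.2, 90.8 and 71.8 CPM in knockout libraries. Control 1 fell inside the knockout range, and the difference did not pass (-0.34 ± 0.17, 95% interval -0.72 to 0.04, adjusted p = 0.191). Without control 1 it did (-0.45, adjusted p = 0.0384). The related gene Uap1l1, whose product resembles the pyrophosphorylase, was not among the 10 but rose 2.39-fold. It measured 34.7, 47.2 and 40.0 CPM in control and 84.2, 119 and 87.8 CPM in knockout libraries, without overlap (1.26 ± 0.17, adjusted p = 0.00376). Uap1 accounted for 78.1% ± 1.54 of the FPKM of both genes in control and 54.5% ± 2.00 in knockout libraries. Counts of both genes were whole in every library.

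Nagk, the kinase that returns free N-acetylglucosamine to the pathway, measured 29.8, 27.1 and 20.4 CPM in control and 40.2, 40.8 and 38.1 CPM in knockout libraries. The knockout values were close together (coefficient of variation 3.60%) and all above control (0.62 ± 0.15, 95% interval 0.28 to 0.97, adjusted p = 0.0257). The call rested on the full set: leaving out control 2, control 3 or any 1 knockout library gave adjusted p between 0.0507 and 0.0884, with values of 0.51 to 0.69. Renbp, the epimerase gene, was low, with 38 to 77 counts per control library and 38 to 57 per knockout library. Its highest library was control 3 at 4.53 CPM and the groups overlapped (-0.23 ± 0.34, adjusted p = 0.671). Without control 3 its value was 0.20.

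Amdhd2, which encodes the deacetylase that turns N-acetylglucosamine-6-phosphate back into glucosamine-6-phosphate, measured 38.0, 47.7 and 41.1 CPM in control and 79.1, 91.9 and 65.2 CPM in knockout libraries. The groups were apart by more than their spread (0.90 ± 0.15, 95% interval 0.56 to 1.24, adjusted p = 0.00705). Values of 0.77 to 1.02 remained past the test without each library in turn (adjusted p up to 0.0307).

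Gnpda1 and Gnpda2 encode deaminases for the same reaction. Gnpda1 measured 56.4, 96.2 and 89.4 CPM in control and 115, 150 and 128 CPM in knockout libraries. All knockout libraries lay above control, where control 1, the library with the high goblet cell and low enterocyte marker sums, stood apart at the low end (0.70 ± 0.20, 95% interval 0.23 to 1.17). The knockout libraries, with the higher Gnpda1 values, had enterocyte sums of 18239 to 21456 CPM beside 20898 CPM in control 1. The part of these cell types in Gnpda1 was not tested. The adjusted p of Gnpda1, 0.0501, missed the threshold. It was 0.0254 without control 1 (value 0.54) and 0.0435 without control 2 (0.88), but 0.0818 without control 3 and 0.0728, 0.150 and 0.128 without knockouts 1, 2 and 3. It lay between 0.0068 and 0.056 over the 11 other settings, 10 of which called it higher. Gnpda2 measured 15.4, 12.9 and 18.4 CPM in control and 10.9, 8.94 and 13.8 CPM in knockout libraries. Knockout 3 overlapped control 2 (-0.47 ± 0.21, 95% interval -0.94 to 0.01, adjusted p = 0.153), and with the replicate number as a block the gene was called lower (-0.48, adjusted p = 0.0406). In GENCODE M21, 2866 of the 19233 bases of Gnpda2 on chromosome 5 overlap the opposite-strand gene Guf1. Guf1 fell from 15.1 ± 1.76 to 4.76 ± 0.211 CPM (-1.67 ± 0.16, adjusted p = 0.00163). Counts of both genes were whole in every library, unlike those of the other overlapping pairs. The library kit does not mark strand, and the part of Guf1 reads in the Gnpda2 value was not tested.

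**Figure D3:**
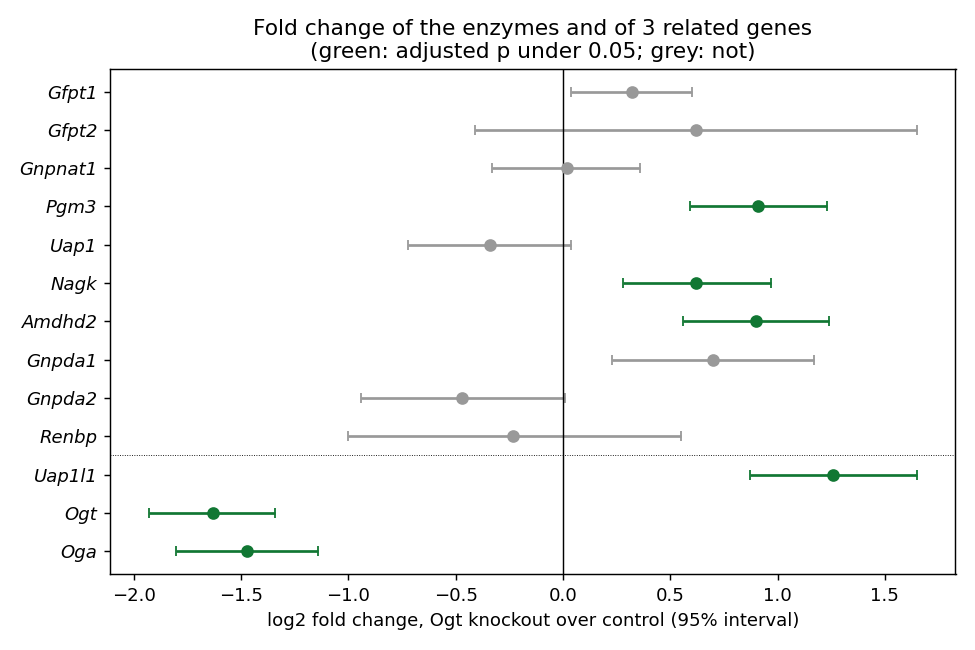
Log2 fold change of knockout over control (points) with 95% intervals (bars) for the 10 enzymes and, below the dotted line, Uap1l1, Ogt and Oga; green marks an adjusted p under 0.05 and grey marks the rest. Pgm3, Nagk and Amdhd2 lie to the right of 0 in green, the grey interval of Gnpda1 runs from 0.23 to 1.17, and Ogt and Oga lie at -1.63 and -1.47.

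Opposing and successive steps were compared as FPKM ratios within each library, which do not depend on library scaling. Over 9 ratios, 5 did not overlap between groups, and each of those had p = 0.10, the smallest that an exact two-sided permutation test of 3 against 3 libraries can give (adjusted p over the ratios = 0.18). Gnpnat1 over Amdhd2, acetylation over deacetylation, was 1.45, 0.993 and 1.0 in control and 0.810, 0.455 and 0.761 in knockout libraries, a log2 difference of -0.79. Every control library had Gnpnat1 close to or above Amdhd2 and every knockout library had it below. Gnpda1 over Gnpda2 went from 2.81, 5.85 and 4.28 to 8.32, 14.1 and 7.32 (1.20). Pgm3 over Uap1 went from 0.471, 0.258 and 0.278 to 0.667, 0.726 and 0.837 (1.20). The gap was widest for Uap1 over Uap1l1, from 3.26, 3.57 and 3.91 to 1.30, 1.11 and 1.19 (-1.57).

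Gfpt1 over Gnpda2 also separated the groups (0.83), with 11.2 to 17.1 in control and 17.9 to 29.4 in knockout libraries. Gfpt1 over Gnpda1, amination over deamination by the more abundant deaminase, overlapped at 4.76, 2.92 and 2.61 in control and 3.28, 2.08 and 2.44 in knockout libraries (-0.37, exact permutation p = 0.40, adjusted p = 0.514). The log2 differences of Gfpt1 over Pgm3 (-0.55, exact permutation p = 0.20), Nagk over Amdhd2 (-0.26, exact permutation p = 0.50) and Gfpt1 over Gfpt2 (-0.19, exact permutation p = 0.70) did not separate the groups either.

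**Figure D4:**
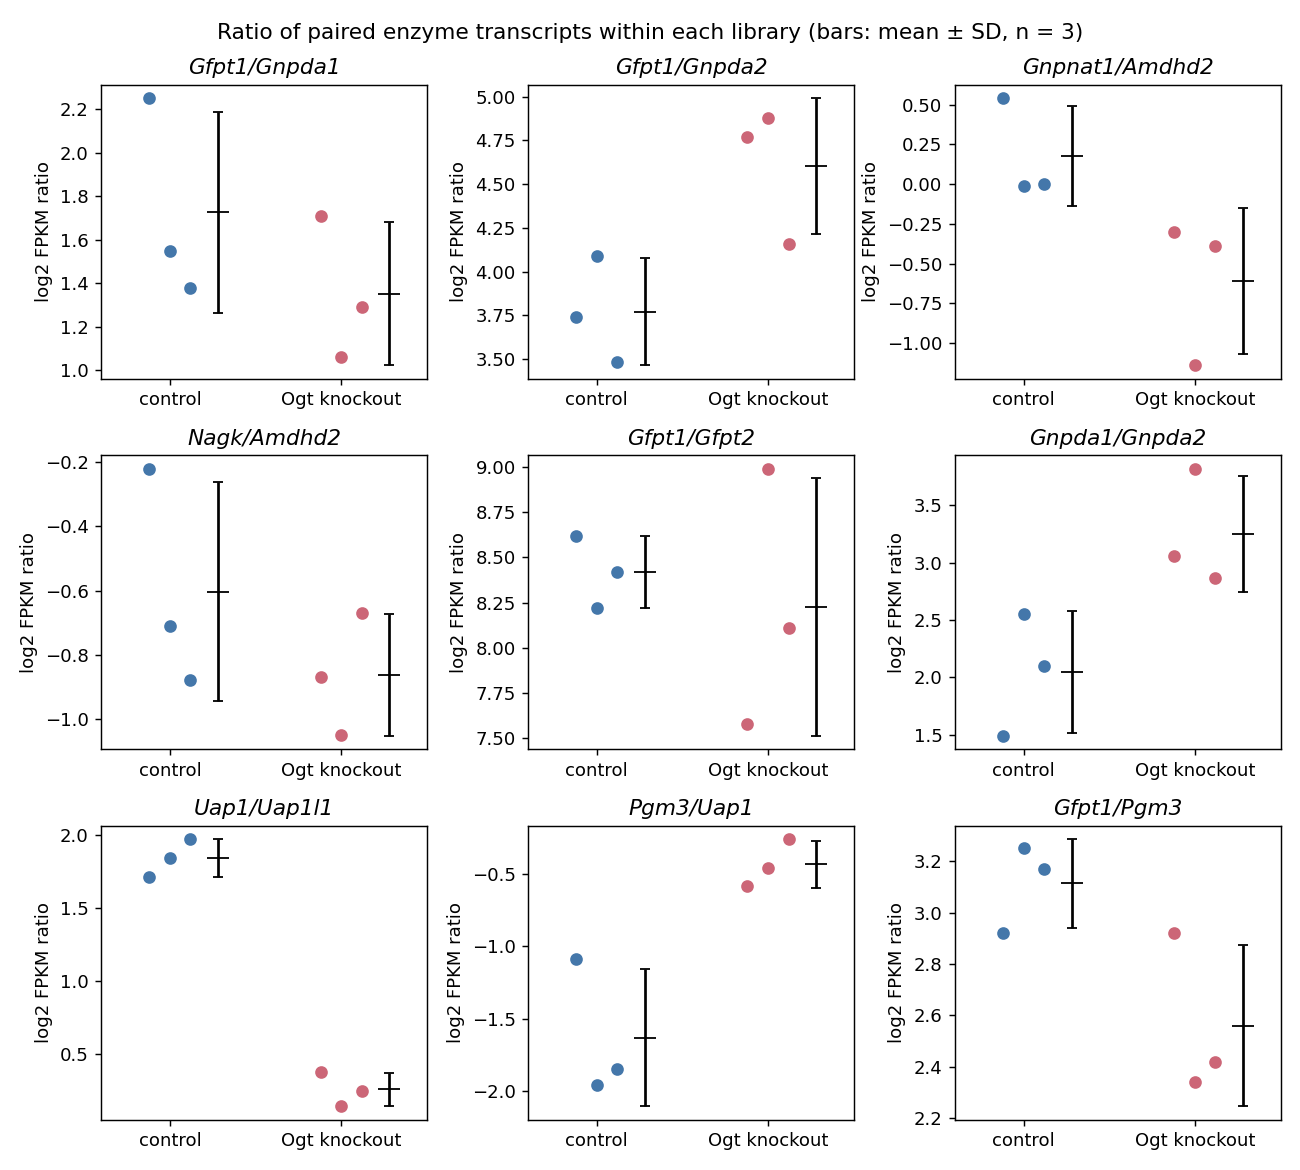
Log2 ratio of FPKM for 9 pairs of transcripts in each library (blue control, red Ogt knockout), with mean ± SD bars; axes differ between panels and do not start at 0. The groups do not overlap for Gfpt1/Gnpda2, Gnpnat1/Amdhd2, Gnpda1/Gnpda2, Uap1/Uap1l1 and Pgm3/Uap1, and overlap for the other pairs.

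The promoters of enzymes that rose or stayed can be set side by side. RefSeq windows of 250 bases before to 50 bases after the start (GRCm38.p6) were held for 8 of the 10 genes. The letters CACGTG, the core E-box read by factors such as MYC and TFEB, occurred 3 times in the Amdhd2 window, starting 67, 50 and 23 bases before the start, and in none of the other 7 windows. Of 32851 windows, 7.15% held CACGTG and 0.0883% held it at least 3 times. The copy nearest the RefSeq start lies inside the longer palindrome TCACGTGA (0.974% of windows). GENCODE M21 also lists an Amdhd2 start 33 bases upstream of the RefSeq start, and this copy lies downstream of it. TGACGT, the core of sites for CREB and ATF factors, occurred only in the Uap1 window (7.51% of all windows). GGGCGG, a box read by SP1-type factors, occurred in 7 of the 8 windows, all but that of Gnpda2 (35.7% of all). Neither TGATGNAA, written for sites of ATF4 with C/EBP partners, nor the endoplasmic reticulum stress element occurred in any of the 8 (3.97% and 0.119% of all). Both strands were searched, and a match describes letters, not a bound site. The stretches from 130 to 15 bases before the start are shown 5′ to 3′ on the gene's strand for the 3 enzymes that rose and for Gfpt1 and Uap1, which did not pass, with the E-box, the CREB core and the SP1-type box, on either strand, in capitals. The windows are Amdhd2 chr17:24163748-24163863 (minus strand), Pgm3 chr9:86571857-86571972 (minus), Nagk chr6:83794870-83794985 (plus), Gfpt1 chr6:87042716-87042831 (plus) and Uap1 chr1:170174979-170175094 (minus).
Amdhd2: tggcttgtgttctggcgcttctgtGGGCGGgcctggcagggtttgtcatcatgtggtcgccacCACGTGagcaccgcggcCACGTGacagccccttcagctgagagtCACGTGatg
Pgm3: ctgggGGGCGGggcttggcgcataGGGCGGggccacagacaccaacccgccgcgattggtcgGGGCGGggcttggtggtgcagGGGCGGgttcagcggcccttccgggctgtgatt
Nagk: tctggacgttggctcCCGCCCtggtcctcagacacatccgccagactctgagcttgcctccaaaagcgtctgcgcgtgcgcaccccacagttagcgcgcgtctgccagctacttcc
Gfpt1: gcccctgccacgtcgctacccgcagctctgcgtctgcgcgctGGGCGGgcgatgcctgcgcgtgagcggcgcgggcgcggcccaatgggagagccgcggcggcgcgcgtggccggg
Uap1: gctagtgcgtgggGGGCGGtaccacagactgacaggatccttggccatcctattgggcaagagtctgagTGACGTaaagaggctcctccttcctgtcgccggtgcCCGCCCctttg

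Beside the capitals of Amdhd2 (3 E-boxes and 1 GGGCGG) stand 4 GGGCGG in Pgm3 and 1 each in Nagk and Gfpt1. Uap1 shows 1 TGACGT and 2 GGGCGG.

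Genes next to the pathway moved in both directions. Among 13 genes of other routes to and from UDP-GlcNAc, 4 rose and 2 fell, beside 9.33% of all tested genes higher and 9.37% lower. The list median was 0.15. The counts were 5 and 0 with library size as the only scaling, and 4 and 1 in limma on log2(FPKM + 0.1), the settings with 14.6% higher and 6.13% lower, and 16.1% higher and 6.12% lower, over all genes. Those that rose included Uap1l1 and 2 sialic acid genes, Cmas (124 ± 21.4 to 184 ± 18 CPM, 0.57 ± 0.14, adjusted p = 0.0304) and Nans. Gne, which begins sialic acid synthesis from UDP-GlcNAc, and Pgm1 were the 2 that fell. Leaving out each of controls 1 to 3 and knockouts 1 to 3 gave 4, 1, 1, 1, 1 and 1 higher and 0, 2, 0, 0, 0 and 0 lower. Uap1l1 kept its call throughout, while Cmas lost its call when any 1 library except control 1 was left out (adjusted p up to 0.0912).

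Of 9 nucleotide sugar transporters, 2 rose and none fell, beside 9.33% of all tested genes higher and 9.37% lower. Slc35a4 went from 47.0 ± 1.67 to 80.5 ± 2.81 CPM (0.78 ± 0.09, adjusted p = 0.00261), and the UDP-galactose transporter Slc35a2 rose (0.66 ± 0.14, adjusted p = 0.0149, lost without control 3 or knockout 3, adjusted p up to 0.0616). Slc35a3, the UDP-GlcNAc transporter of the Golgi and the most abundant of the list, stood at 326 ± 27.6 and 342 ± 17.3 CPM (0.07 ± 0.11, adjusted p = 0.706).

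In substrate supply 1 of 19 genes was higher and 1 lower, beside 9.33% of all tested genes higher and 9.37% lower. The list median was -0.26. Acly, which makes cytosolic acetyl-CoA, rose from 78.0 ± 5.1 to 110 ± 12.5 CPM (0.50 ± 0.12, adjusted p = 0.0225). Acly did not pass without control 2, control 3, knockout 1 or knockout 3 (adjusted p up to 0.0838). Without control 1 the list had 2 higher and 5 lower, and with library size as the only scaling or in limma on log2(FPKM + 0.1) it had 1 higher and 0 lower. Slc5a1, the sodium-glucose cotransporter, measured 1877 ± 981 CPM in control and 1443 ± 236 CPM in the knockout (-0.38 ± 0.41, adjusted p = 0.556; -0.70 and adjusted p = 0.0228 without control 1, 0.03 without control 2).

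Of 11 tested enzymes that release N-acetylglucosamine none rose and 2 fell, beside 9.33% of all tested genes higher and 9.37% lower. The list median was -0.42, and the 2 were Oga and the lysosomal Aga (-0.74 ± 0.20, adjusted p = 0.0358). Aga lost its call whichever 1 library was left out (adjusted p up to 0.118). The balance of this list turned with the scaling, to 4 higher and 1 lower with library size only and 4 higher and 2 lower in limma on log2(FPKM + 0.1), and DESeq2 called 2 in each direction. Among 38 tested genes whose products use UDP-GlcNAc, 1 rose and 5 fell, set against the same shares of all tested genes. Their median was -0.23. Under both other scalings the counts were 5 higher and 4 lower. Ogt and Pigc, a subunit of the enzyme that begins GPI anchors, fell (27.0 ± 2.35 to 16.1 ± 0.894 CPM, -0.74 ± 0.13, adjusted p = 0.00783). Mgat4a, an N-glycan branching enzyme and the most abundant of the list, went from 612 ± 50.4 to 392 ± 79.8 CPM (-0.64 ± 0.16, adjusted p = 0.0313). With control 2, control 3, knockout 2 or knockout 3 left out Mgat4a no longer passed (highest adjusted p 0.109). The number lower in this list was 6, 3, 3, 5, 2 and 3 and the number higher 4, 2, 1, 1, 2 and 1 without controls 1 to 3 and knockouts 1 to 3.

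Gfpt1 is a known target of XBP1 in the endoplasmic reticulum stress response, so 16 genes of that and the amino acid response were listed. Of these 3 rose and none fell, beside 9.33% of all tested genes higher and 9.37% lower. The list median was -0.05. Sdf2l1 went from 17.2 ± 0.694 to 38.4 ± 8.62 CPM (1.16 ± 0.17, adjusted p = 0.0047) and Creld2 from 30.8 ± 4.48 to 66.7 ± 17.2 CPM (1.11 ± 0.20, adjusted p = 0.011). The chaperone gene Hspa5 went from 652 ± 85.3 to 1105 ± 246 CPM (0.76 ± 0.19, adjusted p = 0.0269), and its call was lost with control 2, control 3, knockout 1 or knockout 2 left out (highest adjusted p 0.0913). The regulator genes themselves did not pass: Xbp1 stood at 0.06 ± 0.17 (adjusted p = 0.819) and Atf4 at -0.42 ± 0.15 (adjusted p = 0.0956). These are RNA levels, and the activity of the regulator proteins was not measured.

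Patterns over the 6 libraries were compared as the root mean square difference of log2 CPM after each gene was centred on its own mean, among 7179 genes whose mean log2 CPM was 4 or more. Nearest to Gfpt1 were Cisd2 (0.035), Pdxdc1 (0.039), Edc4 (0.041) and Tnk2 (0.041). Nearest to Pgm3 were Sec24d (0.074), a component of the vesicle coat that leaves the endoplasmic reticulum, the DNA ligase gene Lig3 (0.081), Rpf1 (0.092) and Fitm2 (0.094). Within the pathway the closest pairs were Gfpt1 with Gnpnat1 and Pgm3 with Nagk (both 0.21), then Amdhd2 with Gnpda1 (0.22), and the farthest was Amdhd2 with Gnpda2 (0.78). The distances are not scaled to the spread of each gene, so genes that vary little lie close to one another. Gfpt1 separated the groups and Gnpnat1 did not (0.32 and 0.02), although they were among the closest pairs. These distances describe the same libraries as the fold changes and carry no test.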

How the data were processed

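Bulk RNA was measured in 6 ileal epithelial libraries (3 control, 3 Ogt knockout). The authors deposited 1 table of estimated counts (expected counts) and FPKM per gene and library, per the file headers. FPKM is scaled for length and library total, as deposited. The submitters' processing notes name the builds GRCm39 and mm39; for the aligner, counter, annotation release and filters, the answer is "not given in the sources used here". Per the labels' protocols, the kit was NEBNext Ultra RNA, which keeps no strand. Genes were named by Ensembl identifier from GENCODE M21 (22219 of 22274); overlaps and RefSeq promoters are on GRCm38 and were not joined to coordinates of the data.

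Counts were rounded to whole numbers (7.68% to 8.09% per library were not whole within 0.001), filtered with filterByExpr (minimum count 10, total 15), scaled with TMM factors and tested with the edgeR 4.0.16 quasi-likelihood test (R 4.3.3, robust) over 14005 genes, with Benjamini-Hochberg adjustment and a threshold of 0.05. Depth was 14389429 to 18076479 counts, and 3 counts correspond to 0.159 to 0.207 CPM. The SE came from the F statistic and the 95% intervals from its degrees of freedom. No libraries agreed within sampling noise (mean chi-square per gene at least 20.3). The test was checked on simulated counts.

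Ratios were tested with exact permutation tests in scipy 1.17.1. Alternatives were other scalings (DESeq2 size factors, upper quartile, library size only), DESeq2 1.42.0, limma 3.58.1 (voom, log2(FPKM + 0.1), log2(FPKM + 1)), other filters, the replicate number as a block and each library left out. The named genes are the 10 members, Ogt and Oga; per neighbouring list the 2 lowest adjusted p-values and the gene with the highest level; and the 4 genes nearest in pattern to Gfpt1 and Pgm3. Nans, Gne, Pgm1, Xbp1, Atf4, Guf1, Styx, Dop1a, Col1a1 and Col1a2 were added after their values were seen. Some genes that the rule selects are not reported here. Members and lists were chosen with earlier results of these data known.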

Additional observations from a re-analysis of the deposited data

How the results depend on the processing

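Of 168 values of the 10 enzymes under alternative settings, 141 kept their direction and side of the threshold, 19 came to pass it, 5 (all of Nagk) lost it and 3 reversed. The reversals were Gnpnat1 at -0.07 without control 3 and -0.08 without knockout 1 (-0.08 to 0.18 over all 6), and Renbp at 0.20 without control 3 (-0.36 to 0.20); among neighbours Slc5a1 stood at 0.03 without control 2 (-0.70 to 0.03), and the log2 ratio of Gfpt1 to Gfpt2 at 0.13 without knockout 1 (-0.57 to 0.13). The causes were not tested. The number of enzymes called higher was 5 with library size alone, DESeq2, limma on log2(FPKM + 0.1) and limma on log2(FPKM + 1), and 2 to 4 with a library left out. Gfpt2 fell below the FPKM filter of these limma settings and was not tested in them. The number called lower was 1 under the replicate block (Gnpda2) and 0 to 1 with a library left out (Uap1 without control 1). Over all genes, leaving out a library gave 1009 to 3304 changed, 549 to 1932 higher and 460 to 1372 lower. Library size alone gave 2045 higher and 859 lower, and limma gave 724 lower on log2(FPKM + 0.1), 738 on log2(FPKM + 1) and 642 without an FPKM filter, where the median of all genes was 0.07 to 0.12. With the replicate number as a block 3402 genes changed (1728 higher, 1674 lower). Same-numbered libraries deviated together with correlations of 0.27, 0.25 and 0.08, and each library correlated best with its own number. The numbers were not taken as pairs because the labels name no shared animal or litter. Depth limited Gfpt2 and Renbp, with 15 to 77 counts per library.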
